A study of Mus musculus with 6 samples.

Results

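The genes described here are 10 genes of hepcidin signalling and iron handling, out of 52323 genes in the count table, read in dHeps that were cultured with solvent or with chemical cocktails. They were chosen by gene symbol, and all 10 were found on 1 row each. The members are the hormone hepcidin (Hamp) and its neighbour Hamp2, the transferrin receptors Tfr2 and Tfrc, transferrin (Trf), the exporter ferroportin (Slc40a1), the phagosomal metal transporter Nramp1 (Slc11a1), the ferritin chains Fth1 and Ftl1, and ceruloplasmin (Cp).

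Damaged hepatocytes (dHeps) were isolated by collagenase perfusion from AAV-TBG-Cre:Rosa-LSL-tdTomato mice with CCl4 injury and kept in serum-free Hepatocyte Maintenance Medium for 16 days. Per the study's methods, the fibrosis model used mice of both sexes aged 8 to 10 weeks, on a C57BL/6 background, injected with CCl4 for 12 weeks. The DMSO group received solvent only. The 3C group received CID755673 at 50 µM, which inhibits protein kinase D, GSK429286A at 2 µM, and ETC-1002 at 5 µM. The 5C group received the same 3 compounds together with salidroside at 5 µM and forskolin at 2 µM, which activates adenylate cyclase. In these mice the hepatocyte-restricted TBG promoter drives Cre, so tdTomato marks cells of hepatocyte origin, but the labels name no sort for the marked cells before RNA was taken. Each group had 2 libraries, the labels did not say whether they came from separate animals, and p-values measure only the spread between these libraries.

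Iron travels in plasma bound to transferrin and enters cells through transferrin receptors. It is stored in ferritin shells built of heavy and light chains, and it leaves through ferroportin, whose iron is oxidised by ceruloplasmin for loading onto transferrin. Hepatocytes set the exit by secreting hepcidin, which binds ferroportin and leads to its loss. Hepcidin transcription in hepatocytes follows bone morphogenetic protein (BMP) signals through SMAD proteins, sensing of loaded transferrin by Tfr2 and Hfe, and interleukin-6 signals through Stat3. Inside cells, iron regulatory proteins bind iron-responsive elements in mRNA: an element in a 5′ UTR blocks translation of that mRNA, and elements in a 3′ UTR protect it from decay.

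Iron-responsive elements are shown because through them iron acts on these members after transcription. A search of annotated UTRs (GENCODE release 39, GRCm39) looked for a bulged C, a loop of CAGTG with a further base that is not G, and arms of 5 bases that can pair around the loop, with at most 1 mismatch. It matched 4 of the 10 members (40%) and 1781 of 22263 protein-coding genes (8.0%). The members' elements had no mismatch in the arms, a form found in 221 protein-coding genes (0.993%). Tfrc held 4 elements in its 3′ UTR, and Slc40a1, Fth1 and Ftl1 held 1 each in the 5′ UTR. The 29-base elements are given 5′ to 3′ with the loop in capitals.
Tfrc 3′ UTR, chr16:32450037-32450065, plus strand: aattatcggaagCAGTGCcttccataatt
Tfrc 3′ UTR, chr16:32450416-32450444, plus strand: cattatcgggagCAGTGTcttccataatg
Tfrc 3′ UTR, chr16:32450481-32450509, plus strand: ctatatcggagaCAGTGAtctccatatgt
Tfrc 3′ UTR, chr16:32450528-32450556, plus strand: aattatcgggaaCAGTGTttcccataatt
Slc40a1 5′ UTR, chr1:45964625-45964653, minus strand: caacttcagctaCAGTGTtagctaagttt
Fth1 5′ UTR, chr19:9960096-9960124, plus strand: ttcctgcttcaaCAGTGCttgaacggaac
Ftl1 5′ UTR, chr7:45109203-45109231, minus strand: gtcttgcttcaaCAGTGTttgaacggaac

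The promoters of Hamp and Hamp2 are shown because these neighbouring near copies were read at different levels per length, 53.9 ± 10.1 and 0.781 ± 0.0498 FPKM in 5C (SD, n = 2). Both lie on the minus strand of chromosome 7 (GRCm39), Hamp at 30641766 to 30643990 and Hamp2 at 30621797 to 30624106. The sequences come from RefSeq (GRCm38.p6) and hold the 250 bases before each start, 5′ to 3′, with matches to a BMP-responsive motif (GGCGCC) and a STAT motif (TTCNNNGAA) in capitals.
Hamp promoter, chr7:30944030-30944279, minus strand: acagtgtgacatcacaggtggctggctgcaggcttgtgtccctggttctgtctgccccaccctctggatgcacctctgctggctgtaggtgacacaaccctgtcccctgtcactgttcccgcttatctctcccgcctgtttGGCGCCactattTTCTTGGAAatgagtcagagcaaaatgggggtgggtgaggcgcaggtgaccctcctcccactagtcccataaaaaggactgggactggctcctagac
Hamp2 promoter, chr7:30924182-30924431, minus strand: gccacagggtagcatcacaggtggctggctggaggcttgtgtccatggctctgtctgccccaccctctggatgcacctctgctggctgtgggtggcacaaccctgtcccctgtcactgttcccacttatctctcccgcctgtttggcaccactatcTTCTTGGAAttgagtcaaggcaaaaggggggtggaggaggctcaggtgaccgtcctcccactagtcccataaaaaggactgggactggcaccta

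The alignment of the pair had 227 identical bases of 247 (91.9%). The Hamp window held GGCGCC 109 bases before the start and TTCTTGGAA 97 bases before it. At the aligned place Hamp2 differed from GGCGCC by the substitution G4A, counted from 1 at the 5′ end of the 6 bases, and it held the same STAT match 94 bases before its start. Searched on both strands, GGCGCC occurred in 9.59% and the STAT motif in 7.02% of 32851 promoter windows of the same length. Neither window held CACGTG, present in 6.02% of windows, or the core of the cAMP-responsive motif, TGACG, present in 17.8%. Of the other members searched, Tfrc also held GGCGCC, 89 bases before a start, and Tfr2 and Tfrc held TGACG. The table held promoters of 8 of the 10 members, and a match describes letters only.

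The 6 libraries were close in depth, with totals of 65916573 to 69245895 count units, and levels are given as counts scaled to the library total (CPM). The count table behaves as if most fragments stood for 4 units, which was assumed in setting a floor of 3 fragments (12 units) per library, or 0.173 to 0.182 CPM. Summed CPM over 12 hepatocyte markers was 2461 to 2781 in DMSO, 11218 to 11720 in 3C and 10346 to 15109 in 5C. Summed CPM over 15 macrophage markers was 13593 to 14568 in DMSO, 4829 to 4842 in 3C and 3211 to 3270 in 5C, and 13 of these 15 genes were lower in each cocktail than in DMSO in edgeR's test. Clec4f, which defines Kupffer cells, lay between 1.81 and 2.81 CPM in every library. Red cell markers summed to 2.43 to 4.57 CPM and T, B and NK cell markers to at most 0.601 CPM. In such bulk libraries, fewer cells of a type and less RNA per cell cannot be told apart, and the part of these markers in the results on iron genes was not tested.

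In 5C and in 3C, 4 members rose against DMSO (Hamp, Tfr2, Trf and Cp) and 1 fell (Slc11a1). In the quasi-likelihood test of edgeR, a gene was called when the adjusted p was below 0.05 and the log2 fold change was beyond 1 in size. By this rule 11.7% of the 19135 genes tested differed between 5C and DMSO, 7.3% higher and 4.42% lower. Between 3C and DMSO 9.45% differed, 5.83% higher and 3.62% lower. All 10 members passed the filter on low counts, but Hamp2 did so only through its 5C libraries and had to differ, so it is left out of the counts above and described by its units. Between 5C and 3C, 3.01% of genes differed, 2.16% higher and 0.852% lower, and Hamp was the member called (higher in 5C). Without Hamp2, the middle member by log2 fold change was Fth1 (0.05) in 5C against DMSO and Slc40a1 (0.38) in 3C against DMSO. In 5C against 3C it was Cp (-0.06). The medians over all genes tested were 0.00, 0.01 and -0.01 in these comparisons. Since 5C and 3C share their DMSO controls, the comparisons against DMSO are not independent. Together the members took 0.974% and 1.05% of all count units in DMSO, 1.44% and 1.48% in 3C, and 1.44% and 1.53% in 5C.

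**Figure D1:**
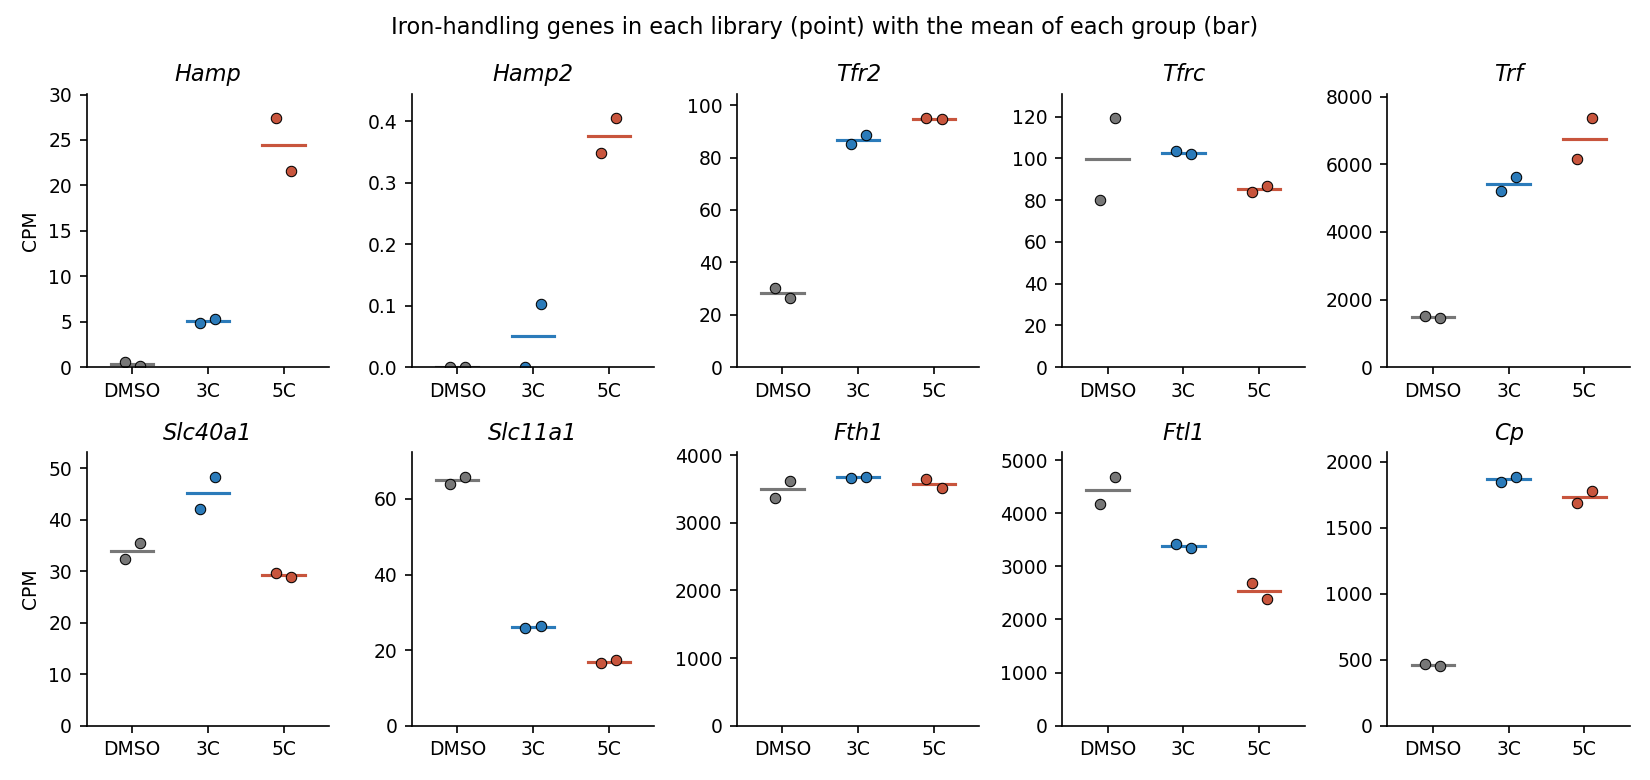
Expression of the 10 iron-handling genes on day 16, in CPM (linear axes starting at 0, 1 scale per gene). Each point is a library and each bar the mean of the 2 libraries of DMSO, 3C or 5C. Hamp stepped up from DMSO (0.167 and 0.581) to 3C (4.83 and 5.35) and 5C (21.6 and 27.4), Trf, Tfr2 and Cp were high in both cocktails, and Slc11a1 and Ftl1 were highest in DMSO.

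Hepcidin showed the widest span. Hamp was read at 0.581 and 0.167 CPM in the DMSO libraries, 4.83 and 5.35 CPM in 3C, and 27.4 and 21.6 CPM in 5C. The groups did not overlap, and the lower DMSO library, with 11 units, was under the floor. Mean levels were 0.374 ± 0.293, 5.09 ± 0.367 and 24.5 ± 4.09 CPM (SD, n = 2). The log2 fold change was 3.73 (SE 0.41, adjusted p = 0.00057) in 3C and 6.04 (SE 0.43, adjusted p = 4.79e-05) in 5C against DMSO. Taken as fragments, 12 in DMSO stood against 846 in 5C, a ratio of 67.8 with a 95% interval of 38.6 to 132 (exact binomial, counting error only). The interval leaves out the gap between the DMSO libraries. The mean of 5C was 42.2-fold the level of DMSO replicate 1, and the log2 fold change in 5C was 5.42 without DMSO replicate 2. Without DMSO replicate 1 it was 7.19, a value that rests on the library under the floor and lies past the interval.

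Hamp also rose from 3C to 5C, by 2.31 on the log2 scale (SE 0.34, adjusted p = 0.00528), or 4.97-fold. This call was lost without 3C replicate 1 (2.24, adjusted p = 0.0748), without 3C replicate 2 (2.39, adjusted p = 0.0639) and under limma on log2(FPKM + 0.1) (2.26, adjusted p = 0.103). As a ratio to albumin (Alb), the most familiar hepatocyte transcript, Hamp was at 0.428 and 0.141 CPM per 1000 Alb CPM in DMSO, 0.653 and 0.689 in 3C, and 4.05 and 2.08 in 5C. The 5C libraries were above all others in this ratio, and the 3C libraries lay above both DMSO libraries by less. No test was run on the ratio. Alb is 1 of the 12 hepatocyte markers, and others may give another ratio. Apoa2, also among them, was read at 3.68 and 2.53 CPM in DMSO, 45.1 and 38.7 CPM in 3C, and 150 and 197 CPM in 5C. In 5C against 3C, 1 of the 12 markers was called higher and 0 lower.

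Hamp2, a mouse paralogue of hepcidin, was scarce. It had 0 units in both DMSO libraries, 0 and 7 units in 3C, and 24 and 28 units in 5C. Only the 5C libraries exceeded the floor. Their mean of 0.376 ± 0.0402 CPM (SD, n = 2) was at least 2.08-fold higher than the DMSO floor per library. No test of this difference is used. Hamp2 units equalled 1.27% and 1.87% of Hamp units in the 5C libraries. The longest transcripts of the pair matched at 414 of 437 aligned bases (94.7%), and 15.4% of the 50-base words of Hamp2 and 9.55% of those of Hamp also occurred in another gene, so counts of Hamp2 are uncertain. Both overlap exons of Gm44662 on the other strand, which reached at most 0.342 CPM.

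The genes whose levels over the 6 libraries lay closest to Hamp, out of 10246 genes averaging 10 CPM or more, were Mug2, Uroc1 and Pck1. Their root mean square distances on centred log2 CPM were 0.29, 0.34 and 0.36. Mug2, a plasma protease inhibitor, ran between 0.486 CPM (DMSO) and 54.4 CPM (5C). Uroc1, an enzyme of histidine breakdown, ran from 0.319 to 31.5 CPM. Pck1, an enzyme of gluconeogenesis, ran from 1.43 to 143 CPM.

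The receptor Tfr2, which senses loaded transferrin on hepatocytes, rose in both cocktails. It was read at 30.3 and 26.5 CPM in DMSO, 85.1 and 88.4 CPM in 3C, and 94.96 and 94.6 CPM in 5C. The groups did not overlap. Tfr2 had a log2 fold change of 1.76 (SE 0.08, adjusted p = 8.95e-07) in 5C and 1.58 (SE 0.08, adjusted p = 3.14e-06) in 3C over DMSO. The difference of 0.18 between 5C and 3C did not pass (adjusted p = 0.188), and its 95% interval ran from 0.01 to 0.35.

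Tfrc, the receptor that most cells use to take up iron, did not follow Tfr2. It was read at 80.2 and 119 CPM in DMSO, 104 and 102 CPM in 3C, and 83.9 and 86.9 CPM in 5C. The DMSO libraries spanned the levels of both cocktails. It had a log2 fold change of -0.21 in 5C (95% interval -0.64 to 0.23, adjusted p = 0.47) and 0.01 in 3C (-0.43 to 0.45, adjusted p = 0.98). Both values depended on which DMSO library was kept. Without DMSO replicate 1 Tfrc was lower, by -0.47 in 5C (adjusted p = 0.00231) and -0.26 in 3C (adjusted p = 0.0458). Without DMSO replicate 2 it had 0.12 in 5C (adjusted p = 0.321) and 0.34 in 3C (adjusted p = 0.0154), all of these under the fold limit. The genes with the most similar profile were H2-K1, Bag2 and Rnaseh2b, at distances of 0.05, 0.07 and 0.07 among 10245 genes.

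Transferrin rose strongly. Trf was read at 1521 and 1464 CPM in DMSO, 5223 and 5614 CPM in 3C, and 6163 and 7360 CPM in 5C. The groups did not overlap. On the log2 scale Trf rose by 2.20 (SE 0.10, adjusted p = 1.03e-06) in 5C and by 1.83 (SE 0.10, adjusted p = 4.54e-06) in 3C over DMSO. From 3C to 5C the difference was 0.37 (adjusted p = 0.0379), under the fold limit. Per length, Trf moved from 530.1 ± 33.6 FPKM in DMSO to 1893 ± 127 FPKM in 3C and 2381 ± 246 FPKM in 5C (SD, n = 2). Relative to albumin it stood at 1121 and 1239 CPM per 1000 Alb CPM in DMSO, and at 706 to 911 in the cocktails. Trf thus rose less than Alb did, while Hamp rose more than Alb. These ratios were not tested, and no other hepatocyte marker was used as the reference.

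Ceruloplasmin, the copper-carrying ferroxidase of plasma, rose to about the same level in both cocktails. Cp was read at 469 and 455 CPM in DMSO, 1845 and 1884 CPM in 3C, and 1686 and 1778 CPM in 5C. The DMSO libraries were well below the others, and the cocktails lay next to each other. The log2 fold change was 1.92 (SE 0.07, adjusted p = 3.73e-07) in 5C and 1.98 (SE 0.07, adjusted p = 1.48e-06) in 3C over DMSO. The difference of 5C from 3C was -0.06, with a 95% interval of -0.21 to 0.10 (adjusted p = 0.714). Its exons overlap those of Hps3 on the other strand, which was at most 41.0 CPM.

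**Figure D2:**
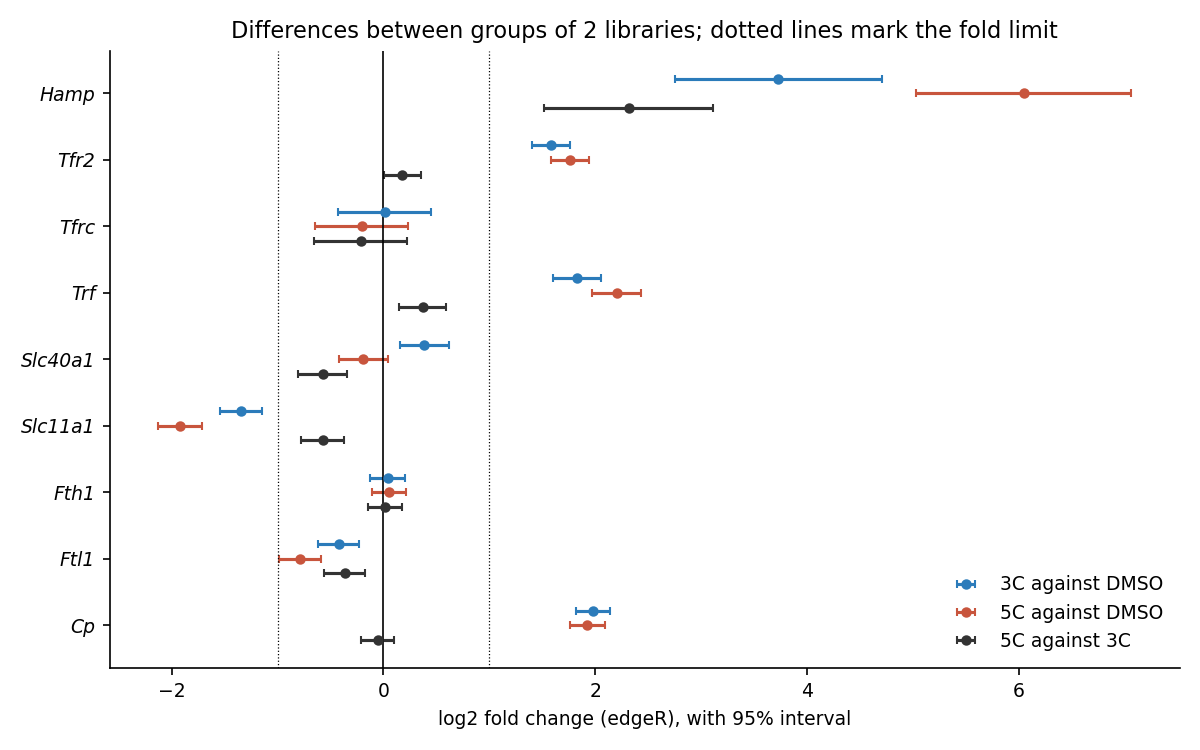
Log2 fold changes of the members in 3 comparisons, from edgeR with 95% intervals (horizontal bars), 2 libraries per group. Dotted lines mark the fold limit of 1 and -1. Hamp2 is left out because its DMSO libraries were at 0. The 5C and 3C points of Hamp lie at 6.04 and 3.73, those of Trf, Tfr2 and Cp between 1.58 and 2.20, and all 3 intervals of Tfrc and Fth1 include 0.

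The exporter ferroportin went different ways in the cocktails. Slc40a1 was read at 32.3 and 35.4 CPM in DMSO, 42.0 and 48.3 CPM in 3C, and 29.6 and 28.95 CPM in 5C. The 3C libraries were the highest and the 5C libraries the lowest, with no overlap. It was lower in 5C than in 3C by -0.57 on the log2 scale (SE 0.10, adjusted p = 0.00687), and its change against DMSO was 0.38 in 3C (adjusted p = 0.0237) and -0.19 in 5C (adjusted p = 0.21). None of these reached the fold limit. The nearest profiles among 10245 genes were those of Fst, Tnfaip3 and Tspan17, at distances of 0.04, 0.06 and 0.06.

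Slc11a1, which macrophages use to move metal ions out of phagosomes, fell. It was read at 64.1 and 65.8 CPM in DMSO, 25.8 and 26.4 CPM in 3C, and 16.5 and 17.4 CPM in 5C. The groups were apart, with DMSO highest. Slc11a1 had a log2 fold change of -1.92 (SE 0.09, adjusted p = 1.09e-06) in 5C, -1.35 (SE 0.09, adjusted p = 1.04e-05) in 3C, and -0.57 (adjusted p = 0.00359) in 5C against 3C.

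Most of the macrophage markers moved with it, and 13 of 15 were called lower in each cocktail. Cd14 went the other way, at 92.1 and 87.1 CPM in DMSO, 156 and 176 CPM in 3C, and 144 and 125 CPM in 5C. Lyz2 alone made up 6024 and 6137 CPM of the summed markers in DMSO. Per 1000 summed marker CPM, Slc11a1 stood at 4.71 and 4.52 CPM in DMSO, 5.35 and 5.45 CPM in 3C, and 5.04 and 5.41 CPM in 5C. In this ratio the cocktails were slightly above DMSO, whereas the level itself fell 3.79-fold in 5C. Adgre1, which encodes F4/80, had log2 fold changes of -2.32 in 5C and -1.74 in 3C, and Csf1r, the receptor for macrophage growth factor, had -2.02 and -1.50. Slc40a1, which macrophages and hepatocytes both express, behaved otherwise: per 1000 marker CPM it was at 2.38 and 2.43 CPM in DMSO, 8.71 and 9.98 CPM in 3C, and 9.06 and 9.02 CPM in 5C. The part of macrophage RNA in either gene was not tested.

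The ferritin chains separated. The heavy chain Fth1, which carries the ferroxidase site, was read at 3369 and 3622 CPM in DMSO, 3666 and 3678 CPM in 3C, and 3639 and 3511 CPM in 5C. All 3 groups lay within a narrow range, and DMSO and 5C overlapped. Its log2 fold change was 0.05 (95% interval -0.11 to 0.21) in 5C and 0.04 (-0.12 to 0.20) in 3C against DMSO.

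The light chain Ftl1, which aids iron core formation, was read at 4177 and 4686 CPM in DMSO, 3422 and 3341 CPM in 3C, and 2690 and 2379 CPM in 5C. It stepped down without overlap. The log2 fold change was -0.79 (SE 0.09, adjusted p = 0.00015) in 5C, -0.42 (SE 0.09, adjusted p = 0.00649) in 3C and -0.37 (adjusted p = 0.0244) in 5C against 3C, all under the fold limit. Of the 50-base words of its longest transcript, 80.2% also occurred in another gene, mostly in the pseudogene Ftl1-ps1, so its counts are uncertain.

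Per length, the ratio of Fth1 to Ftl1 was 0.755 and 0.717 in DMSO, 0.995 and 1.13 in 3C, and 1.33 and 1.35 in 5C. The ratio was higher in 3C than in DMSO and highest in 5C, with no overlap between groups and no test run on it. Since the counts of Ftl1 are uncertain, which chain had more mRNA is not read from it. As shown above, both chains carry a 5′ element through which iron acts on translation, which these RNA levels do not measure. The summed chains took 0.755% and 0.831% of all count units in DMSO and 0.589% and 0.633% in 5C.

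**Figure D3:**
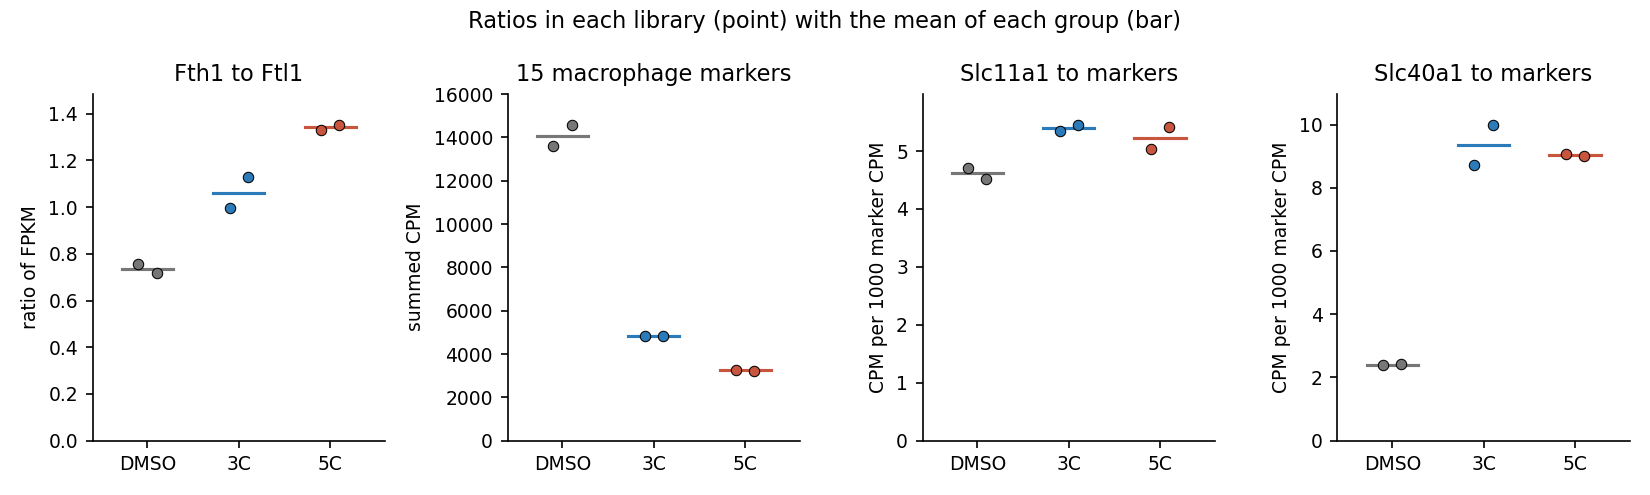
Ratios in each library (points) with the mean of 2 libraries (bars), on linear axes from 0. From left to right, the panels show Fth1 FPKM over Ftl1 FPKM, summed CPM of 15 macrophage markers, and Slc11a1 and Slc40a1 CPM per 1000 of that sum. The ferritin ratio rose from 0.717 and 0.755 in DMSO to 1.33 and 1.35 in 5C, the Slc40a1 ratio was 8.71 to 9.98 in the cocktails against 2.38 and 2.43 in DMSO, and the Slc11a1 ratio was 4.52 to 5.45 in all libraries.

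Ranked per length, the members kept a wide spread of levels. In DMSO, Ftl1 (4184 ± 187 FPKM) and Fth1 (3077 ± 24.7 FPKM) were far above Trf (530.1 ± 33.6 FPKM) and Cp (119 ± 8.21 FPKM), and Hamp was at 0.817 ± 0.676 FPKM (SD, n = 2). In 5C, Fth1 stood at 3189 ± 312 FPKM, Trf at 2381 ± 246 FPKM and Ftl1 at 2378 ± 257 FPKM, and the last pair did not differ beyond their spread. Hamp, at 53.9 ± 10.1 FPKM, had passed Tfr2 (29.5 ± 1.00 FPKM), Tfrc (16.3 ± 0.0676 FPKM), Slc40a1 (7.91 ± 0.319 FPKM) and Slc11a1 (7.42 ± 0.444 FPKM).

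Genes known to control hepcidin were taken as a list of 24. In 5C 5 rose and 2 fell against DMSO, in 3C 3 rose and 1 fell, and none passed both limits in 5C against 3C. The list's median log2 fold changes were 0.38, 0.14 and 0.27 in these comparisons. Over all genes tested, 11.7%, 9.45% and 3.01% were called, and these shares stand beside the counts of each list below as well. Direct targets of BMP and SMAD signalling were among those that rose in 5C: the transcriptional regulator Id1, the inhibitory Smad6 and Smad7, and the transcription factor Atoh8.

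Id1 was read at 33.3 and 30.5 CPM in DMSO, 119 and 117 CPM in 3C, and 172 and 149 CPM in 5C. Smad6 was read at 26.9 and 21.9 CPM in DMSO, 50.9 and 44.9 CPM in 3C, and 101 and 84.3 CPM in 5C. For both, the groups stepped up without overlap, and a link to the rise of Hamp was not tested. The log2 fold changes in 5C against DMSO were 2.35 for Id1, 1.94 for Smad6, 1.51 for Smad7 and 1.78 for Atoh8, with adjusted p-values from 3.03e-07 to 5.82e-06. In 3C they were 1.85, 0.94, 0.84 and 1.03, and for 5C against 3C 0.50, 1.00, 0.67 and 0.75, where all 4 had adjusted p-values of 0.00109 to 0.00366 but did not exceed the fold limit. Smad6 lay at the limit, and its 5C against 3C difference was called with no filter (1.0002), without 3C replicate 1 (1.09) and without 5C replicate 2 (1.1). In 3C against DMSO Smad6 was called without DMSO replicate 1 (1.09) and without 3C replicate 2 (1.03). The 3C call of Atoh8 was lost without DMSO replicate 2 (0.94) and without 3C replicate 1 (0.92).

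Ligands and co-receptors did not move as one. The ligand Bmp6 was read at 24.3 and 27.7 CPM in DMSO, 55.4 and 48.2 CPM in 3C, and 45.0 and 38.4 CPM in 5C, so DMSO was lowest and the cocktails higher. Its log2 fold change was 0.96 in 3C and 0.70 in 5C, under the fold limit. The 3C value lay near the limit and exceeded it without DMSO replicate 2 (1.08) and without 3C replicate 2 (1.05). Bmp2, another ligand, had -1.11 in 5C (adjusted p = 0.00724) and -1.10 in 3C (adjusted p = 0.00872), from 9.95 ± 0.705 CPM in DMSO (SD, n = 2). The call of Bmp2 was lost in 5C without 5C replicate 1 (-0.82) and in 3C without 3C replicate 1 (adjusted p = 0.0638). Endothelial cells are a known source of both ligands in liver, and of 8 endothelial markers, 7 of them tested, 5 were higher and 1 lower in 5C, and 3 were higher and 1 lower in 3C, than in DMSO. Their summed level was 328 and 337 CPM in DMSO, 88.7 and 121 CPM in 3C, and 144 and 221 CPM in 5C, but the lower marker, Lyve1, alone made up 309 and 319 CPM of the DMSO sums. Clec4g was listed at 0 in 5 of the 6 libraries. Erg, among the 7 tested, had 0 units in both DMSO libraries and passed the filter only through the cocktail libraries. It had to differ from DMSO, so a call of it in these counts carries no weight. The part of endothelial cells in the levels of the ligands, and of the BMP and SMAD targets above, was not tested.

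Tmprss6, a protease that cleaves the co-receptor hemojuvelin, rose by 3.01 in 5C (SE 0.11, adjusted p = 3.73e-07) and 2.66 in 3C (SE 0.11, adjusted p = 1.48e-06) on the log2 scale. Hemojuvelin (Hjv) itself was uneven in DMSO, with 56 and 0 units, and had 111 and 124 units in 3C and 555 and 681 units in 5C. Its 5C libraries were the highest by far, but the 5C against DMSO difference of 4.44 did not pass (SE 1.32, adjusted p = 0.0772). This difference was 3.45 without DMSO replicate 2. Without DMSO replicate 1 it was 12.27, a value set by the 0 units of the DMSO library left. In 3C against DMSO the difference was 2.03 (adjusted p = 0.357). There it was 1.05 without DMSO replicate 2, and 9.86 without DMSO replicate 1, again set by the 0 units. For 5C against 3C the difference of 2.41 did not pass either (adjusted p = 0.318). It was called in the fit of these 4 libraries alone (adjusted p = 0.000567), under limma on log2(FPKM + 1) (0.00175), with counts divided by 4 (0.0455) and without either DMSO library (0.000602 and 0.000501). Hfe, a partner in transferrin sensing, fell by 1.22 in 5C (adjusted p = 1.21e-05), while the 3C value was -0.91. Gdf15, a stress cytokine, had -0.57 in 5C (adjusted p = 0.00527) and -0.20 in 3C. Of the interleukin-6 branch, named after its values were seen, Stat3 had 0.56 in 5C and 0.10 in 3C, its target Socs3 had 0.45 and -0.31, and the receptor Il6ra had -0.65 and -0.64.

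**Figure D4:**
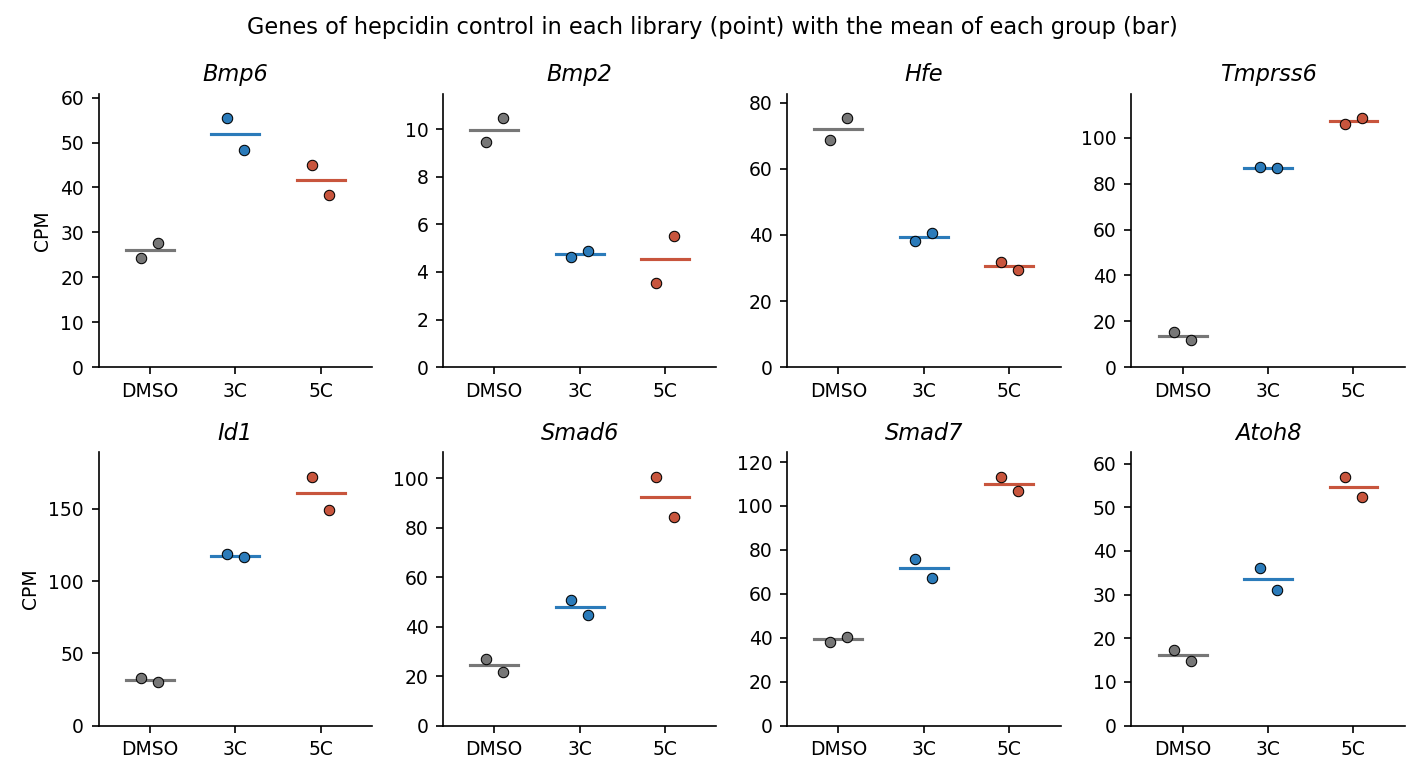
CPM of 8 genes of hepcidin control in each library (points) with the mean of each group of 2 (bars), on linear axes from 0. The lower row holds target genes of BMP and SMAD signalling, and each of them stepped up from DMSO to 3C to 5C, with Id1 at 30.5 to 33.3, 117 to 119 and 149 to 172 CPM. In the upper row Tmprss6 was high in both cocktails, whereas Hfe and Bmp2 were highest in DMSO.

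Of 15 genes of iron uptake and export, 6 rose in 5C, and 4 rose and 1 fell in 3C, against DMSO. Lcn2, which binds siderophores that carry iron, was read at 154 and 195 CPM in DMSO, 817 and 1035 CPM in 3C, and 1562 and 1621 CPM in 5C. The groups did not overlap, and its log2 fold change was 3.20 in 5C and 2.37 in 3C. Steap4, a metalloreductase, rose by 3.37 in 5C and 2.76 in 3C, and Scara5, a ferritin receptor, by 2.81 and 1.39. The ferroxidase Heph rose by 1.59 and 1.31, and the metal transporter Slc39a8 rose by 1.13 in 5C and had 0.55 in 3C. Meltf, named after its values were seen, rose by 2.26 in 5C (adjusted p = 0.0301), from 0.328 and 0.121 CPM in DMSO to 0.869 and 1.26 CPM. Its lower DMSO library was under the floor, and this call was not checked under the alternatives. The importer Slc39a14 had 0.54 in 5C and 0.67 in 3C, Steap3 -0.33 and -0.30, and Slc11a2, the endosomal and gut iron importer, 0.09 and 0.10.

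In 5C against 3C, 2 of these genes rose, Scara5 (1.42, adjusted p = 0.0151) and Cybrd1 (2.46, adjusted p = 0.00777). Cybrd1, a ferric reductase, was read at 3.23 and 1.21 CPM in DMSO, 0.846 and 0.66 CPM in 3C, and 3.92 and 4.07 CPM in 5C. The 5C libraries were highest and the 3C libraries lowest. Lactoferrin (Ltf), also named after its values were seen, had 0 units in both 5C libraries and 13 to 24 units in the other 4, next to the floor of 12. It passed the filter only through the other groups, so its negative calls in 5C against DMSO and against 3C are left out of these counts. Without 3C replicate 2, neither Scara5 (adjusted p = 0.123) nor Cybrd1 (adjusted p = 0.0692) passed, and without either 5C library Scara5 did not pass (0.0888 and 0.0708). The fall of Cybrd1 in 3C against DMSO (-1.59, adjusted p = 0.0295) was lost without each of DMSO replicate 1, 3C replicate 1, 3C replicate 2 and either 5C library (adjusted p = 0.0532 to 0.218). The 3C calls of Scara5 and Heph were lost without 3C replicate 1 (adjusted p = 0.0984 and 0.0614), and that of Scara5 also without DMSO replicate 2 (0.0535).

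The genes that sense iron inside cells moved little. Of 7 listed, 6 were tested and none passed both limits in any comparison. The iron regulatory proteins Aco1 and Ireb2 had log2 fold changes of 0.02 and 0.04 in 5C and 0.25 and -0.07 in 3C. Fbxl5, the ubiquitin ligase subunit that removes Ireb2 when iron is present, had -0.79 in 5C (adjusted p = 2.95e-05) and -0.38 in 3C. Ncoa4, the receptor for ferritin breakdown, had 0.38 in 5C and -0.09 in 3C. It shared 41.3% of its 50-base words with another gene and is uncertain. Among 11 genes of mitochondrial iron and iron-sulfur clusters, none was called in any comparison, and the median was 0.13 in 5C and 0.12 in 3C.

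Of 20 heme genes, 4 rose and 1 fell in 5C, and 3 rose and 1 fell in 3C. The plasma scavengers of hemoglobin and heme rose together: haptoglobin (Hp) by 3.66 in 5C and 3.21 in 3C, and hemopexin (Hpx) by 2.86 and 2.47. Cd163, the haptoglobin receptor of macrophages, fell by 2.12 and 1.95, beside the fall of most macrophage markers given above. Alas1, which starts heme synthesis, was read at 67.8 and 67.6 CPM in DMSO, 101 and 101 CPM in 3C, and 161 and 161 CPM in 5C. It stepped up without overlap, with a log2 fold change of 1.27 in 5C and 0.55 in 3C. The difference of 5C from 3C was not called in the reported fit, but was under limma on log2(FPKM + 1) (1.08, adjusted p = 0.000504). Hmox1, which breaks heme down, had -0.48 in 5C and -0.79 in 3C, and the heme transporter Flvcr2 rose by 1.02 and 1.04, close to the limit. The 5C call of Flvcr2 was lost without any of the 4 libraries compared (adjusted p = 0.0519 to 0.159), and its 3C call without each library except 3C replicate 2 (adjusted p = 0.0529 to 0.257).

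Over all 77 genes of the 5 lists, of which 76 were tested, 15 rose and 4 were called lower in 5C against DMSO, 10 rose and 3 fell in 3C against DMSO, and 2 rose and 1 was called lower in 5C against 3C, with Ltf among those called lower in 5C. The shares called over all genes tested were 11.7%, 9.45% and 3.01% in these comparisons. Without 3C replicate 1, the 13 calls in 3C against DMSO came to 8. Under limma on log2(FPKM + 1), which understates changes of low genes, the calls of Bmp2, Scara5, Heph and Flvcr2 against DMSO were lost, as were those of Atoh8 and Cybrd1 in 3C, and of Scara5 and Cybrd1 between the cocktails.

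**Figure D5:**
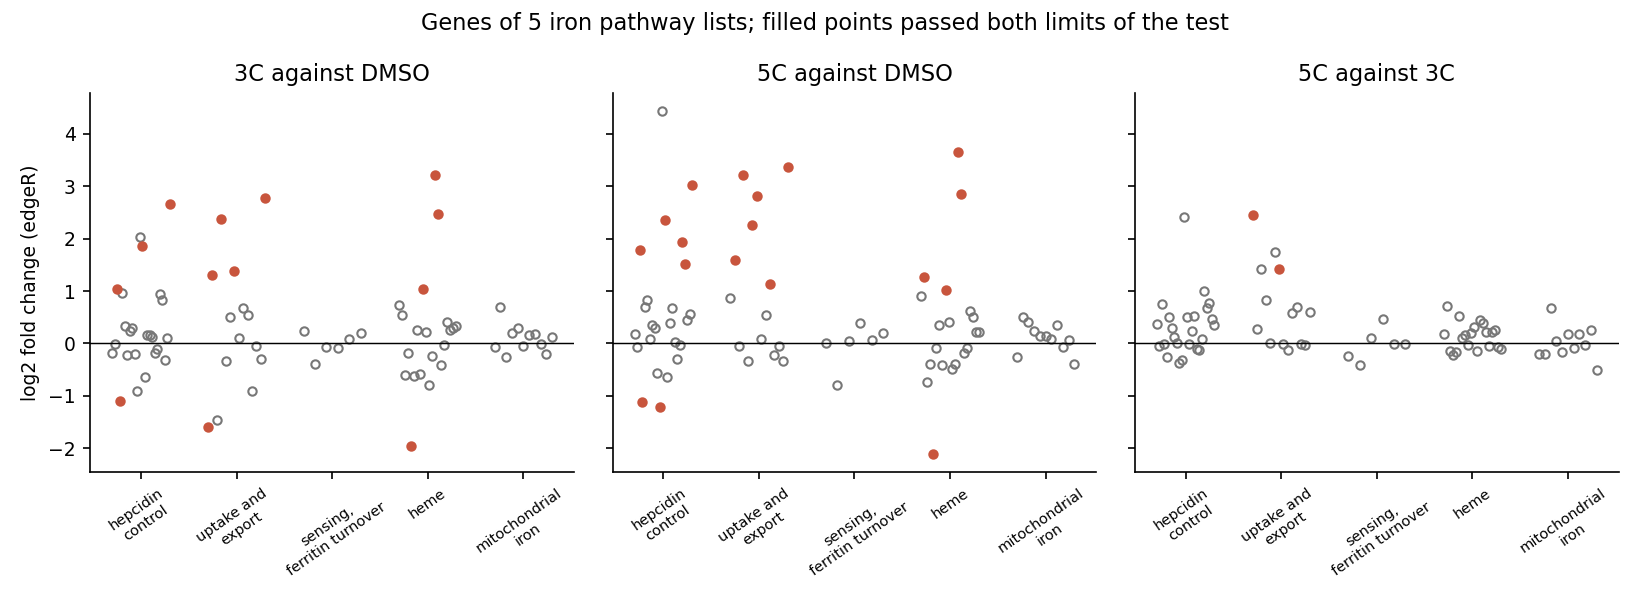
Log2 fold changes (edgeR) of the genes of 5 iron pathway lists in 3 comparisons of groups of 2 libraries. Filled points passed both limits of the test and open points did not, and Ltf is left out because its 5C libraries were at 0. Called genes lie in the lists of hepcidin control, uptake and export, and heme, and none lies in those of iron sensing or mitochondrial iron.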

How the data were processed

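RNA-seq libraries of dHeps on day 16 (DMSO, 3C and 5C, 2 each) were analysed from 2 deposited tables. Reads were mapped to GRCm39 by the study, and the submitters' processing notes name featureCounts, Subread and DESeq2. The annotation release and whether counting used strand are not given in the sources used here. The authors deposited estimated counts per gene without normalization, all whole numbers, and FPKM, which they scaled for gene length and library total. Among low counts the value 4 was in excess, with 4816 entries beside 3121 of 3 and 2303 of 5, so a fragment was assumed to be 4 units. The most frequent value was 1, with 6338 entries, which this does not give, so the floor, bounds and intervals rest on an assumption and cover counting error only.

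The main test was edgeR 4.0.16 in R 4.3.3 (quasi-likelihood F test, robust, TMM, filterByExpr, 3 groups, 6 libraries), adjusted by Benjamini-Hochberg over 19135 genes, and adjusted p-values come from it unless another test is named. The SE is the one implied by F, and 95% intervals use the same fit. CPM are counts scaled to the library total. The members and gene lists were chosen with earlier results of these data known. Named genes were the members, a set list of pathway and marker genes, and up to 4 further called genes of largest fold change per list and comparison with a mean of at least 1 CPM. Positions and UTRs came from GENCODE 39 (51722 IDs matched) and promoters from RefSeq. The test was checked on simulated data. Alternatives used RLE normalization, no filter, DESeq2 1.42.0, 4 libraries, a replicate block, limma 3.58.1 on log2(FPKM + 1) and log2(FPKM + 0.1), no fold limit, each library left out, and, chosen after seeing the data, counts divided by 4.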

Additional observations from a re-analysis of the deposited data

Results flagged for a closer look

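In 6 genes of the members and pathway lists with units in every library, the change against DMSO had opposite signs in 5C and 3C, and the difference between the cocktails itself passed edgeR's test. For Slc40a1 (ferroportin) 5C against 3C was -0.57 on the log2 scale (adjusted p = 0.00687), with 0.38 in 3C and -0.19 in 5C against DMSO. For Cybrd1 (ferric reductase) it was 2.46 (adjusted p = 0.00777), with -1.59 in 3C and 0.87 in 5C. For Ncoa4 (ferritin breakdown) it was 0.47 (adjusted p = 0.00479), with -0.09 in 3C and 0.38 in 5C. Socs3 (target of Stat3) had 0.76 (adjusted p = 0.00148), with -0.31 in 3C and 0.45 in 5C, Slc25a37 (mitochondrial iron importer) had -0.50 (adjusted p = 0.00318), with 0.12 and -0.38, and Acvr1 (BMP receptor) had 0.36 (adjusted p = 0.016), with -0.18 and 0.18, these 3 named after their values were seen. Ltf was left out here because it had 0 units in both 5C libraries. Of the 6, only the Cybrd1 difference exceeded the fold limit. Not every change against DMSO passed edgeR's test. Adjusted p was 0.21 for Slc40a1 and 0.169 for Cybrd1 in 5C, and 0.138 in 3C and 0.116 in 5C for Acvr1. The share of all tested genes with such opposite signs was not counted, so the 6 are not read as a result about iron genes.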

How the results depend on the processing

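The calls of Trf, Tfr2, Cp and Slc11a1 against DMSO held under every alternative run, as did those of Hamp against DMSO. Members called in 5C against 3C, 1 in the reported fit, came to 0 under limma on log2(FPKM + 0.1), to 5 with no fold limit, and to 0 to 1 with a library left out. Pathway genes called in 3C against DMSO, 13 as reported, came to 7 under limma on log2(FPKM + 1) with and without a filter, to 40 with no fold limit, and to 8 to 14 with a library left out. Those in 5C against 3C, 3 as reported, came to 1 under limma on log2(FPKM + 0.1), to 25 with no fold limit, and to 1 to 3 with a library left out, and those in 5C against DMSO went from 19 to 48 with no fold limit. Replicate numbers did not pair the libraries (r of deviations -0.03, 0.00 and 0.02), and with a replicate block the calls of members and pathway genes were 5 and 18 for 5C and 5 and 12 for 3C over DMSO, and 1 and 2 between the cocktails. The reported fit called 6 members for 5C, counting Hamp2 (adjusted p = 0.0399), a call lost under the block (0.0618), under limma on log2(FPKM + 1) and without any DMSO or 5C library (0.12 to 0.155). Among named genes the block also lost the calls of Flvcr2 against DMSO (0.0538 and 0.0568). Sign changes touched uncalled values. Under limma on log2(FPKM + 1) with and without a filter and on log2(FPKM + 0.1) these were Fth1 in 5C against 3C (-0.067), and Slc11a2 (-0.025, and -0.026 for 0.1) and Aco1 (-0.018) in 5C against DMSO. With a library left out, the range for 5C against DMSO was -0.47 to 0.12 for Tfrc, -0.012 to 0.12 for Fth1 and -0.0029 to 0.085 for Ireb2. For 3C against DMSO it was -0.26 to 0.34 for Tfrc, -0.026 to 0.11 for Fth1 and -0.14 to 0.035 for Clec4f. For 5C against 3C it was -0.0037 to 0.018 for Fth1, -0.041 to 0.016 for Slc11a2, -0.085 to 0.019 for Steap3, -0.13 to 0.52 for Alb, -0.39 to 0.28 for Bmp2 and -0.25 to 0.26 for Flvcr2. The cause was not tested. With 2 libraries per group and a coefficient of variation of 18.4%, small differences may be missed.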

Other observations

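Pseudogene rows of ferritin light chain were also read. Ftl1-ps1 had 3623 and 3968 count units in DMSO, 2982 and 2928 in 3C, and 2083 and 1999 in 5C, and Ftl2-ps had 1053 and 1192, 898 and 915, and 644 and 604. The groups of both rows stepped down in the order of Ftl1, and reads that the copies share cannot be assigned from these tables. Ftl1-ps1 reached at most 60.2 CPM.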
